A study of Mus musculus with 703 samples.

Results

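The levels of 10 genes that mark fat cells were followed in the gastrocnemius, a calf muscle, of mice of 20 strains. They are Adipoq, Cfd, Retn, Plin1, Cidec, Adig, Fabp4, Lipe, Pnpla2 and Pparg, and they were picked out of the table by gene symbol. The list itself was drawn up with earlier results of these data known. All 10 of 10 symbols occurred among the 19088 genes of the table, and all 10 passed the filter on low counts in every test. The study sequenced polyadenylated RNA from 703 animals, 1 library per animal. Each animal was a CC-RIX mouse, an F1 cross between Collaborative Cross lines, which are inbred and mosaic for 8 founder genomes. Diets labelled 10% fat + fiber or 44% fat + fiber began at 6 weeks of age, and part of the older cohort had metformin, a glucose-lowering drug, in its drinking water at 5 mg/mL from month 7.

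Untreated animals numbered 469, of which 234 ate 10% fat and 235 ate 44% fat, and 236 were female and 233 male. Metformin was given to 234 animals. Among these, 57 females and 59 males ate 10% fat, and the 44% fat diet had 59 of each sex. The labels do not give an animal's age. Because the drug began at month 7, every treated animal belonged to the older cohort while untreated animals could belong to either, so metformin and age cannot be told apart here. Sequencing identifiers in the labels fall into a lower range (544 libraries) and an upper range (159 libraries). This range was a term in every test fitted over both ranges. Strain means, differences within single strains and straight lines of CPM on Adipoq were not adjusted for it. Treatment was unevenly spread over them. The lower range held 400 untreated and 144 metformin libraries, and the upper range 69 and 90.

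Fat cells store triglyceride in a single large droplet and secrete hormones. PPARgamma, encoded by Pparg, is the transcription factor that drives their differentiation, and most of the genes described here are among its known targets. In muscle, fat cells lie between the fibres and around the fascicles, and a dissected muscle can also carry fat from its surface. Some of these genes are also used by other cells: muscle fibres use the lipases Lipe and Pnpla2, and endothelial cells and macrophages make Fabp4.

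Adipoq encodes adiponectin, the hormone used here as the reference gene, and lies at chr16:23146536-23158028 on the plus strand (GRCm38). Plin1 (chr7:79720218-79732903, minus strand) encodes perilipin 1, the protein coat of the droplet. Cfd (chr10:79890853-79892656, plus strand) encodes adipsin, the protease that cleaves factor B in the alternative complement pathway. Retn (chr8:3655770-3660110, plus strand) encodes resistin, a hormone that mouse fat cells secrete. These 4 genes are shown because the diet moved the first pair and the second pair in opposite directions, as described below. The 250 bases before each RefSeq start (GRCm38.p6), read 5′ to 3′ on the gene's strand, are as follows, with matches to the motifs below in capitals. For Plin1 this start lies within the span that the files give, so the window overlaps it.
Adipoq, chr16:23146286-23146535 (+): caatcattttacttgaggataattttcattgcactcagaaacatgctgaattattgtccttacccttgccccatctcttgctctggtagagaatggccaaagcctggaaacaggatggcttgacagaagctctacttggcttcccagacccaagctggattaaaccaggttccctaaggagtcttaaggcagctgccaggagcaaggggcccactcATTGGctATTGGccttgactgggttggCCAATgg
Plin1, chr7:79732777-79733026 (-): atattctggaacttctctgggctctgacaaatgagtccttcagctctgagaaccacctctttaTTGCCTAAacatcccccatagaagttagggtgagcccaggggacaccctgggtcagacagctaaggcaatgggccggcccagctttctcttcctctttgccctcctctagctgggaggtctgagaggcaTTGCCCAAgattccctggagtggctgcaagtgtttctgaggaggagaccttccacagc
Cfd, chr10:79890603-79890852 (+): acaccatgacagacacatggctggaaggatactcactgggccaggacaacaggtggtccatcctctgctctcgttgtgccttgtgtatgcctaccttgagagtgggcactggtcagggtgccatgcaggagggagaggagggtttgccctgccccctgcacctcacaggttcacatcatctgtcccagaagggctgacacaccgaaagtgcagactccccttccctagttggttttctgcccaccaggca
Retn, chr8:3655520-3655769 (+): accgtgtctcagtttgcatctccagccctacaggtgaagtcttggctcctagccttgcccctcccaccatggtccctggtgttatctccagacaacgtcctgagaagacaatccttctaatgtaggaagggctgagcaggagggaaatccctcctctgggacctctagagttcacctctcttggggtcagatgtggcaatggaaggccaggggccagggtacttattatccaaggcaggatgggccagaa

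As motifs, 4 letter patterns were searched on both strands, namely AGGTCA (a nuclear receptor hexamer), TTGCNNAA (C/EBP-type), CCAAT (the CCAAT box) and TATAAA (the TATA box). Adipoq has CCAAT matches at 34 to 30, 27 to 23 and 7 to 3 bases before the start, the first pair of them on the other strand. Plin1 has C/EBP-type matches at 187 to 180 and 58 to 51 bases before the start, and the windows of Cfd and Retn hold no match to any of the 4 patterns. Of the 10 genes, 9 had an entry in the RefSeq promoter table, with 13 promoters in all. AGGTCA occurred in 3 of these 13 and in 14% of all 32851 promoters. TTGCNNAA occurred in 3 of 13 against 9.56%, CCAAT in 3 of 13 against 33.8%, and TATAAA in 1 of 13 against 12.4%. These matches describe the letters in the windows and nothing more.

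Libraries held 27.4M to 96.1M estimated counts, with a median of 47.9M. The 6 markers of muscle fibres summed to between 70070 and 223500 CPM (counts scaled by library size), as the tissue label says. Xist went against the labelled sex in 15 libraries, and 4 libraries resembled another strain more than their own. Ucp1, the uncoupling protein of brown fat cells, passed 1 CPM in 80 libraries and was at 0 in 211. B cell markers summed to over 1 CPM in 36 libraries, of which 18 also passed the Ucp1 limit, and liver markers summed to over 50 CPM in 52. Diet, sex, strain and metformin were refitted without each of these sets of libraries, and results that moved are given with the value without them. Leaving out the Ucp1 libraries was also tried for diet in treated animals and for diet by sex, diet by strain and metformin by strain. Relations with Adipoq, fits at equal Adipoq, variance shares and metformin by diet or sex were not refitted without them.

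The genes differed widely in level. Per kilobase of exon, the median over the 703 libraries was highest for Pnpla2, at 43.2 CPM per kb, followed by Cfd at 34.2 and Fabp4 at 23.6. Exons annotated for Fabp4 cover its whole span, so its value per kb is a low estimate. Adipoq followed at 9.91 CPM per kb, Cidec at 5.97, Lipe at 3.85, Plin1 at 3.21, Retn at 2.06, Adig at 1.27 and Pparg at 1.02. Pnpla2 encodes ATGL, which removes the first fatty acid from a triglyceride, and Lipe encodes hormone-sensitive lipase, which acts next. A gene annotated on the opposite strand overlaps Lipe (4732471J01Rik) and Pparg (Gm44079). The sources used here do not say whether counting used strand, so reads of these overlapping genes may not be separated.

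Adipoq itself ranged from 0.426 to 130 CPM across the 703 libraries, with a median of 13.7. Plin1 ranged from 0.655 to 158 CPM (median 14.9), Cidec from 1.16 to 188 (median 11.1) and Retn from 0.095 to 58.9 (median 3.25). Pnpla2 varied least, from 62.7 to 343 CPM around a median of 130.4. After strain, sex, diet, treatment and identifier range were taken out, the residual SD over the 703 libraries was 0.68 on the log2 CPM scale for Adipoq, 0.76 for Cidec, 0.75 for Retn and 0.25 for Pnpla2. For diet in untreated animals and for metformin, each gene's difference reported below was smaller than its own residual SD, and ranges of the groups overlap for every gene.

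The other 9 genes followed Adipoq to different degrees across the 703 libraries, compared as residuals of log2 CPM once strain, sex, diet, treatment and identifier range were taken out. Plin1 was closest (Spearman's rho 0.86, Pearson's r 0.90), then Cidec (0.82 and 0.88), Fabp4 (0.77 and 0.79) and Lipe (0.71 and 0.77). Cidec encodes a protein through which lipid droplets fuse, and Fabp4 encodes the fatty acid binding protein of fat cells. Retn (0.64 and 0.70), Cfd (0.60 and 0.68), Pparg (0.59 and 0.67) and Adig (0.47 and 0.53) were further away. Adig encodes adipogenin, a small membrane protein of fat cells. Pnpla2 was the least alike, at 0.25 and 0.36. In a permutation test (two-sided, 100000 permutations) each of these 9 relations had p = 1e-05 for both measures, also after Benjamini-Hochberg adjustment over the 9, and this is the smallest p the permutations can give. Without the 2 libraries farthest from the median residual of Adipoq, r lay between 0.34 (Pnpla2) and 0.89 (Plin1).

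Among untreated animals of the lower identifier range alone (n = 400), the same order held at its ends, with rho of 0.87 for Plin1 and 0.25 for Pnpla2. Between any pair of the 10 genes, rho ran from 0.11 (Retn and Pnpla2) to 0.86 (Adipoq and Plin1), and Fabp4 and Lipe had 0.85. Ranked among 17740 genes by rho with Adipoq, Plin1 and Cidec came directly after Adipoq itself, Fabp4 was at rank 6 and Lipe at rank 15, whereas Retn was at rank 34, Cfd at 48, Pparg at 53 and Pnpla2 at 582, with Adig between these last ones. The median rho of all genes was -0.01. The genes outside the 10 whose levels were most like those of Adipoq were Prkar2b (rho 0.80), Aoc3 (0.80), Sncg (0.76), Trarg1, listed as Tusc5 (0.75), Lgals12 (0.75), Cebpa (0.75), Acp5 (0.73), Slc1a5 (0.72), Smoc1 (0.72) and Slc7a10 (0.72). All values come from the same libraries and share their depth and scaling.

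**Figure D1:**
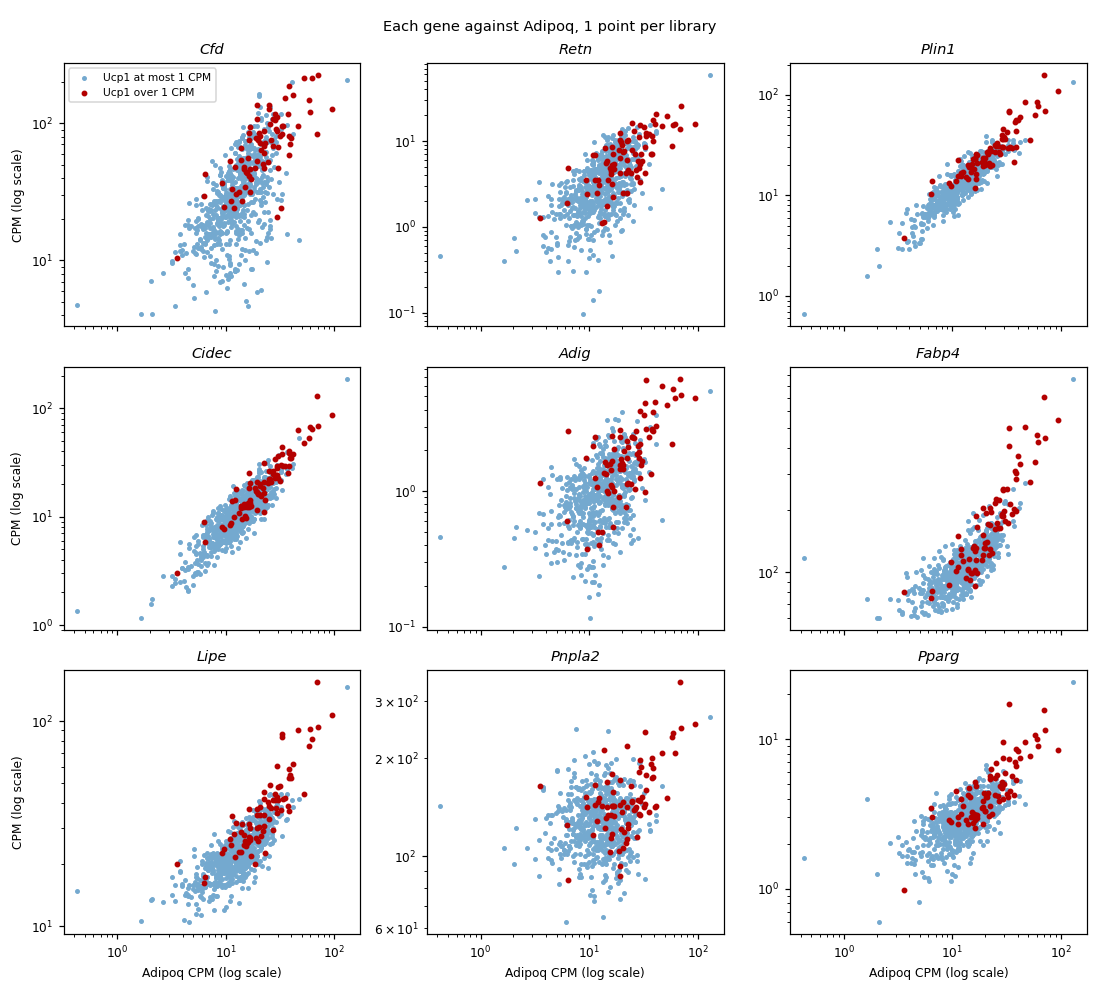
Level of 9 fat cell genes (vertical axis, CPM, log scale) against Adipoq (horizontal axis, CPM, log scale), 1 point per library, with libraries over 1 CPM of Ucp1 in red. Plin1 and Cidec follow Adipoq most closely (rho of residuals 0.86 and 0.82), and Pnpla2 stays near its median of 130.4 CPM over most of the range (rho of residuals 0.25).

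A straight line of CPM on Adipoq CPM over all libraries gave a fitted level for each gene where Adipoq would be 0. Here nothing was taken out, so strain, sex, diet and treatment are mixed into the line, and noise in Adipoq was not accounted for. For Pnpla2 that intercept was 88.2% of its median, with an SE of 2.51 CPM. It was 42% of the median for Pparg, 39.9% for Lipe, 33.3% for Adig, 32.1% for Fabp4 and 23.8% for Cfd. For Retn (-0.26 ± 0.65 CPM, SE), Plin1 (-0.24 ± 1.04) and Cidec (-3.22 ± 1.65) the intercept was below 0, which no real level can be. Those of Retn and Plin1 lay within their SE of 0. The library with the least Adipoq came from an untreated male on 44% fat of strain (CC002/UncJ x CC075/UncJ)F1. There Adipoq had 13 counts (0.426 CPM) and Plin1 20 counts (0.655 CPM), while Fabp4 stood at 117.3 CPM and Pnpla2 at 143 CPM, both above their medians over all libraries, and Lipe at 14.9 CPM.

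The opposite extreme was a male on 10% fat with metformin, of strain (CC002/UncJ x CC043/GeniUncJ)F1. It held 130 CPM of Adipoq, where the other 35 libraries of its strain lay between 5.17 and 25.5, and 188 CPM of Cidec, 863 of Fabp4 and 23.9 of Pparg. Its Retn level was 58.9 CPM, against 0.095 to 3.34 in those other 35. Ucp1 stood at 0.607 CPM there, below the limit of 1, and B cell markers summed to 1.41 CPM. Among the 20 libraries with the most Adipoq, 15 passed the Ucp1 limit and 12 the B cell limit, and 18 passed either of them.

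The first comparison asks what the 44% fat diet did to these genes in untreated animals. On 44% fat, 6 of the 10 genes were higher and 2 were lower than on 10% fat (edgeR's quasi-likelihood test, adjusted p under 0.05). The genes that rose were Adipoq, the droplet genes Plin1 and Cidec, the fatty acid carrier Fabp4 and the lipases Lipe and Pnpla2. The secreted proteins Cfd and Retn fell, by more than any other member rose. Of all 16384 genes tested, 20.3% passed, 10.1% higher and 10.1% lower. The median log2 difference was 0.17 over the 10 genes and -0.003 over all genes. In whole muscle, fewer fat cells and less RNA per fat cell cannot be told apart, here and in every result that follows.

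Adipoq in untreated animals ran from 1.64 through a median of 13.4 to 70.6 CPM on 10% fat (n = 234) and from 0.426 through 14.6 to 94.6 CPM on 44% fat (n = 235). The medians lay close together and the ranges overlapped over nearly their whole length. The fitted log2 difference was 0.24 ± 0.06 (SE), 17.7% higher on 44% fat, with an adjusted p of 0.00266. In limma, by which strains were left out, it was 0.22 (adjusted p = 0.0072) with all strains and 0.17 (adjusted p = 0.062) without (CC019/TauUncJ x CC042/GeniUncJ)F1, the strain in which the diets differed most. Adipoq was higher on 44% fat in 13 of 20 strains.

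Plin1 ran from 1.58 through 14.6 to 69.9 CPM on 10% fat and from 0.655 through 15.97 to 158 CPM on 44% fat, again with overlapping ranges. Its difference was 0.24 ± 0.07 (adjusted p = 0.0044), and in limma it was 0.22 (adjusted p = 0.00845) with all strains, 0.15 (adjusted p = 0.0955) without (CC019/TauUncJ x CC042/GeniUncJ)F1 and 0.18 (adjusted p = 0.0543) without (CC051/TauUncJ x CC019/TauUncJ)F1. Cidec, with medians of 10.8 and 12.4 CPM, rose by 0.29 ± 0.07 (adjusted p = 0.00114) and was higher in 15 of 20 strains. Fabp4, with medians of 102.9 and 113.7 CPM, rose by 0.15 ± 0.05 (adjusted p = 0.0109). In the lower identifier range alone, Fabp4 gave 0.12 with an adjusted p of 0.101. The proteins of Plin1, Cidec and Fabp4 coat or fuse droplets or bind fatty acids.

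Lipe ran from 10.5 through 21.8 to 93.6 CPM on 10% fat and from 13.6 through 25.4 to 154 CPM on 44% fat. It was 18.2% higher, with a log2 difference of 0.24 ± 0.04 (adjusted p = 2.17e-06), and higher in 17 of 20 strains. Pnpla2 ran from 64.9 through 122.9 to 248 CPM and from 89.04 through 142.3 to 343 CPM. Its whole distribution lay higher on 44% fat, though the ranges overlapped, with a difference of 0.20 ± 0.02 (adjusted p = 2.16e-13) seen in 19 of 20 strains.

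Cfd ran from 4.03 through 41.6 to 225 CPM on 10% fat and from 4.05 through 26.7 to 214 CPM on 44% fat. Both extremes were alike while the middle of the distribution lay lower. Its log2 difference was -0.54 ± 0.07, a level 31.3% lower by the fit (percent change -31.3), with an adjusted p of 1.67e-12, and 19 of 20 strains had the lower value on 44% fat. Retn ran from 0.303 through 4.15 to 25.8 CPM and from 0.095 through 2.53 to 20.7 CPM. It fell by 0.42 ± 0.07 (adjusted p = 8.06e-08), also in 19 of 20 strains. Both genes encode secreted proteins of fat cells, as Adipoq does, yet moved against it.

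Adig (medians 1.07 and 1.06 CPM) and Pparg (3.09 and 3.07 CPM) did not pass the test. Their differences were 0.01 ± 0.07 (adjusted p = 0.966) and -0.05 ± 0.05 (adjusted p = 0.574). Intervals of 1.96 standard errors reached to either side of 0 for both genes.

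**Figure D2:**
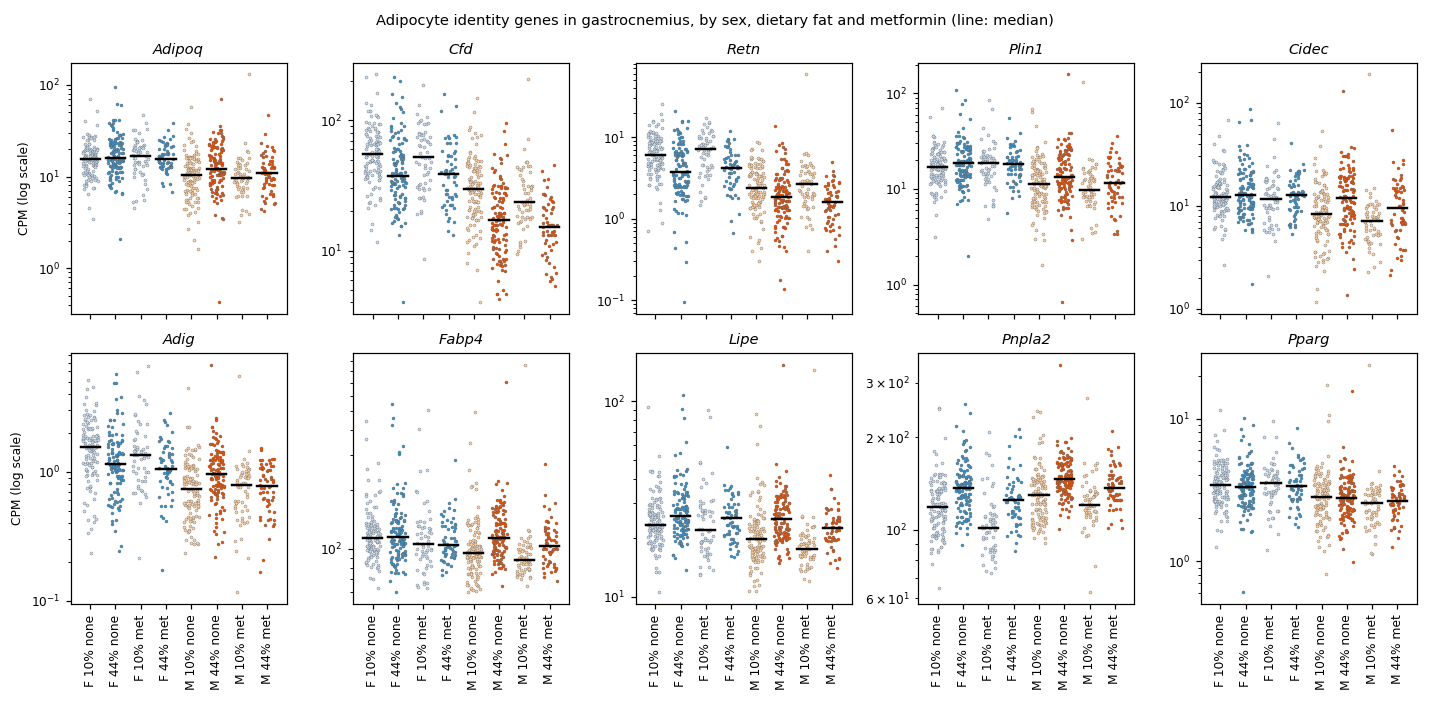
CPM (log scale) of each of the 10 genes in the 8 groups of sex, diet and treatment, 1 point per library, with a bar at the group median. Cfd and Retn sit lower in males and on 44% fat, Pnpla2 sits higher on 44% fat, and ranges of the groups overlap for every gene.

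Other genes listed for fat cells gave a similarly divided picture. Of 16 such genes, 9 rose and 2 fell on 44% fat in untreated animals, against 10.1% of all genes in each direction. Those that fell, Mrap and Gpd1, were not among the other fat cell genes named in the design of the tests. Among the genes that moved, Car3 (median 1129 CPM), Gpd1 (472) and Plin4 (264) stood far above Adipoq (13.7). The sum of the 16 had a rho of 0.28 with Adipoq over residuals of all libraries. It adds CPM as they stand, so genes with high CPM weigh most in it and it does not describe each gene. Sncg (rho 0.76), Trarg1 (0.75), Lgals12 (0.75) and Cebpa (0.75), also of this list, were among the genes closest to Adipoq. Values of rho for the other genes of the list are not given here. Which cells the transcripts of the 16 genes came from was not tested, so the count cannot be read as one of fat cells alone. Lep, the hormone leptin, had the largest rise at 1.19 ± 0.08 (adjusted p = 2.83e-36), followed by Npr3, the clearance receptor for natriuretic peptides, at 0.76 ± 0.05, Trarg1, a regulator of GLUT4 trafficking, at 0.54 ± 0.07, and Sncg, gamma-synuclein, at 0.51 ± 0.05. Mrap, the accessory protein of the ACTH receptor, fell by 0.35 ± 0.08 and Gpd1, which makes glycerol 3-phosphate, fell by 0.10 ± 0.02.

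The counts in this paragraph stand against 20.3% of all genes that passed by edgeR, 10.1% higher and 10.1% lower. Several of these short lists lie near that share. Of the 6 partners of the lipases, 3 rose and 0 fell. Plin5, the droplet coat protein of oxidative tissue, rose by 0.78 ± 0.04 (adjusted p = 1.78e-49), Mgll, which releases the last fatty acid, by 0.26 ± 0.03, and Hilpda, an inhibitor of ATGL, by 0.15 ± 0.04. Of the 9 transcription factors of fat cells, edgeR and limma called 0, with 0 at an unadjusted p under 0.05 in either. Of 3 adiponectin receptors 1 passed, Cdh13 at -0.04 ± 0.01. In the complement pathway that adipsin serves, 2 of 5 genes were lower, C3 at -0.25 ± 0.06 and Cfp (properdin) at -0.11 ± 0.04. Among markers of other cells, edgeR called 0 of 6 brown fat genes, with 2 at an unadjusted p under 0.05, and limma called 3. By edgeR 2 of 6 genes of fibro-adipogenic progenitors were lower (Dpp4 at -0.15 ± 0.03 and Pi16 at -0.08 ± 0.03), 3 of 4 endothelial genes were higher, and 0 of 5 macrophage, 0 of 5 liver, 0 of 5 red blood cell and 0 of 4 Schwann cell genes passed, none of these at an unadjusted p under 0.05 and none by limma.

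To set the other 9 genes beside Adipoq, log2 CPM of Adipoq was added to their model. Noise in this single transcript makes the adjustment incomplete, so the values do not fully separate a gene's own difference from that of Adipoq. At equal Adipoq, Cfd was lower on 44% fat by 0.70 on the log2 scale and Retn by 0.63, both more than without Adipoq in the model. The direction of that shift was fixed in advance. Adipoq was itself higher on 44% fat, and all 9 genes rose with it between libraries, so adding it lowers each diet value. This also holds for Pparg and Adig, which passed only with Adipoq in the model. In all, 2 of the 9 genes were higher and 4 lower, against 10.3% and 11.2% of all genes and 21.5% in either direction. The fitted values were -0.70 ± 0.05 for Cfd (adjusted p = 3.9e-38), -0.63 ± 0.05 for Retn (2.45e-34), -0.16 ± 0.04 for Pparg (0.000105) and -0.16 ± 0.06 for Adig (0.022). Lipe was higher by 0.14 ± 0.03 (6.25e-06) and Pnpla2 by 0.17 ± 0.02 (7.42e-12). For Plin1 (0.02 ± 0.03), Cidec (0.05 ± 0.03) and Fabp4 (0.05 ± 0.03) no difference passed. With limma on log2 CPM, 5 of the 9 passed, since Adig gave -0.09 with an adjusted p of 0.27.

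**Figure D3:**
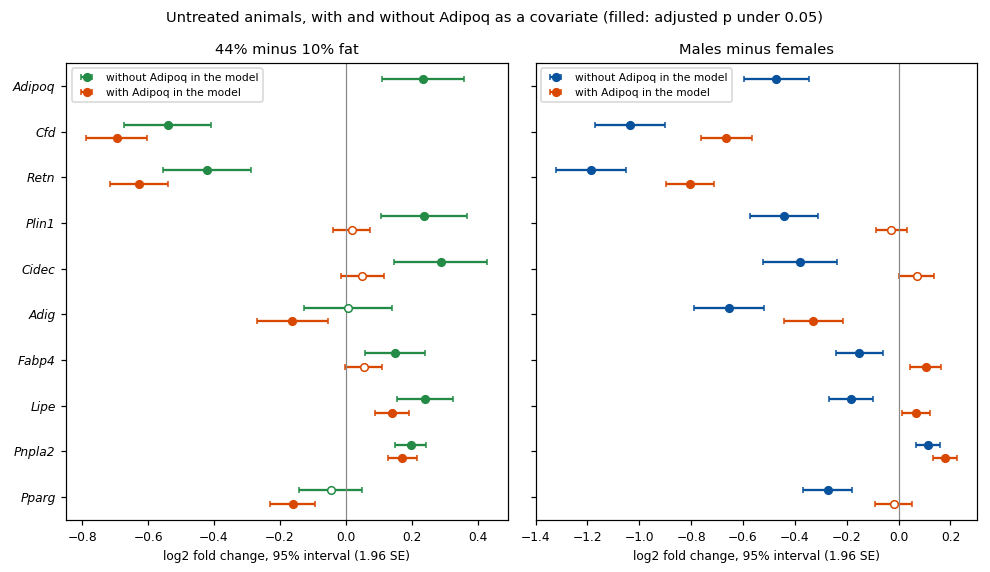
Log2 differences for diet (44% minus 10% fat) and sex (male minus female) in untreated animals, with and without log2 CPM of Adipoq in the model, with bars of 1.96 SE. For diet, Plin1, Cidec and Fabp4 move to near 0 (0.02, 0.05 and 0.05) while Cfd and Retn stay low (-0.70 and -0.63).

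The diet difference was then compared between the sexes. Adig alone passed this interaction test, as did 0.568% of all genes. In females, Adig ran from 0.235 through 1.56 to 5.15 CPM on 10% fat and from 0.242 through 1.14 to 5.71 on 44% fat. In males it ran from 0.235 through 0.732 to 4.46 CPM and from 0.217 through 0.96 to 6.76. The median was thus lower on 44% fat in females and higher in males. In separate linear models, the difference was -0.30 ± 0.09 in females and 0.37 ± 0.09 in males, and edgeR gave an interaction of 0.69 ± 0.14 with an adjusted p of 0.000846. Without the libraries over the Ucp1 limit, Cidec (0.57 ± 0.12, adjusted p = 0.00179) and Fabp4 (0.32 ± 0.06, adjusted p = 0.000201) passed as well, so 3 of the 10 did.

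Whether the diet difference varied between strains depended on the model. In edgeR, 7 of the 10 genes passed (Adipoq, Retn, Plin1, Cidec, Fabp4, Lipe and Pparg), against 4.13% of all genes. With limma 0 of the 10 passed after adjustment, and 7 had an unadjusted p under 0.05. Without the 80 libraries over the Ucp1 limit, edgeR also called 0, with 6 at an unadjusted p under 0.05. For Plin1, the mean difference per strain ran from -0.27 to 1.56, the highest in (CC019/TauUncJ x CC042/GeniUncJ)F1, with a median of 0.05 over the 20 strains.

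Animals given metformin were tested for diet separately, as a separate set of samples. Here 4 of the 10 genes differed, 3 lower and 1 higher on 44% fat. Of all 16418 genes, 12.1% passed, 5.27% higher and 6.79% lower. Cfd (medians 32.5 and 22.7 CPM) had a log2 difference of -0.63 ± 0.09 (adjusted p = 6.68e-10), and Retn (3.84 and 2.54 CPM) had a difference of -0.81 ± 0.11 (adjusted p = 2.1e-10). Pnpla2 (113.1 and 129.4 CPM) rose by 0.20 ± 0.03 (adjusted p = 5.72e-07). Adig had a difference of -0.29 ± 0.09 (adjusted p = 0.0151), which limma put at -0.16 (adjusted p = 0.247), calling Lipe instead at 0.18 (adjusted p = 0.0123). With limma in the lower identifier range alone, Adig (-0.28, adjusted p = 0.185) and Pnpla2 (0.13, adjusted p = 0.0802) did not pass. Cfd, Retn and Pnpla2 thus kept the direction they had in untreated animals, with ranges that overlapped.

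Adipoq (-0.0046 ± 0.0847), Plin1 (-0.01 ± 0.09), Fabp4 (0.01 ± 0.07), Cidec (0.13 ± 0.11), Lipe (0.11 ± 0.06) and Pparg (-0.03 ± 0.07) did not pass in treated animals. Without the male with 130 CPM of Adipoq, which ate 10% fat, Cidec (0.27 ± 0.09, adjusted p = 0.021) and Lipe (0.19 ± 0.05, adjusted p = 0.00359) passed too, and Adipoq was at 0.10. By edgeR, brown fat markers moved with diet among the treated: 3 of 5 tested were lower on 44% fat, against 6.79% of all genes. Ucp1 stood at -2.02 ± 0.42 there. In untreated animals it stood at 0.28 ± 0.28 and did not pass (adjusted p = 0.527 in edgeR). Ucp1 is a sparse transcript, at 0 in 211 libraries, and no limma value is given for these markers in treated animals. Ucp1 passed 1 CPM in 13 of 57 treated females on 10% fat and 3 of 59 on 44% fat. The summed level of the 6 markers ran from 3.84 to 270 CPM in the former and from 3.55 to 222 in the latter, and from 2.24 to 25.2 and 2.23 to 10.5 in the males. Without the libraries over the Ucp1 limit 4 genes passed again, with Lipe in place of Adig (-0.15, adjusted p = 0.263).

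The next comparison set males against females among untreated animals. All 10 genes differed, 9 lower and 1 higher in males. This count needs to be read against the whole table, in which 67.1% of genes differed, 30.1% higher and 37% lower in males. The largest differences were again those of the secreted proteins Retn and Cfd, and Pnpla2 was the gene higher in males. The median log2 difference was -0.41 over the 10 genes and -0.02 over all.

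Retn ran from 0.095 through 5.31 to 25.8 CPM in 236 females and from 0.138 through 2.06 to 13.9 CPM in 233 males. The male median lay far below the female one, though the ranges overlapped. Its difference was -1.19 ± 0.07 (adjusted p = 6.31e-50), and it was lower in males in 20 of 20 strains. Cfd ran from 4.05 through 47.7 to 225 CPM in females and from 4.03 through 23.4 to 148 CPM in males, a difference of -1.03 ± 0.07 (adjusted p = 1.4e-40), also in 20 of 20 strains. Adipoq, with medians of 15.7 and 11.5 CPM, differed by -0.47 ± 0.06 (adjusted p = 3.05e-12) in 18 of 20 strains.

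Of the remaining genes, Adig differed by -0.65 ± 0.07, Plin1 by -0.44 ± 0.07, Cidec by -0.38 ± 0.07, Pparg by -0.27 ± 0.05, Lipe by -0.18 ± 0.04 and Fabp4 by -0.15 ± 0.05, with adjusted p between 1.37e-18 and 0.00205. Pnpla2 (medians 128.6 and 140.3 CPM) was higher in males by 0.11 ± 0.02 (adjusted p = 8.22e-06), in 16 of 20 strains. Among the 69 untreated libraries of the upper identifier range alone, 4 of the 10 passed, against 26.1% of all genes. There Adipoq stood at -0.14, and Cidec and Fabp4 had the other sign, at 0.15 ± 0.15 and 0.0048 ± 0.0894. Without the 36 libraries with B cell markers, Fabp4 stood at -0.06 with an adjusted p of 0.161.

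Brown fat markers also differed by sex, with 5 of 6 lower in males (Ucp1 at -1.03 ± 0.29). Of all genes, 37% were lower in males and 67.1% differed in either direction. Their summed level ran from 3.01 through 8.43 to 123 CPM in females on 10% fat, from 1.89 through 6.80 to 209.8 in females on 44% fat, from 2.18 through 4.55 to 238.5 in males on 10% fat and from 2.39 through 5.11 to 297 in males on 44% fat. Without the libraries over the Ucp1 limit all 10 genes passed for sex. Of the 16 other fat cell genes, 4 were higher and 9 lower in males, from Adrb3, the beta-3 adrenergic receptor, at -1.41 ± 0.11 to Mest at 0.38 ± 0.06. C3 at -0.65 ± 0.06 and properdin at -0.30 ± 0.04 were lower in males, as Cfd was.

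At equal Adipoq, with the same incomplete adjustment, 3 of the 9 genes were lower and 3 higher in males. Adipoq was itself lower in males, so adding it raises the value of each gene, a shift likewise fixed in advance. Of all genes, 33.3% were lower and 29.8% higher, and 63.2% passed in either direction. Retn stood at -0.80 ± 0.05 (adjusted p = 6.12e-49), Cfd at -0.66 ± 0.05 (adjusted p = 1.93e-33) and Adig at -0.33 ± 0.06 (adjusted p = 1.12e-07). Fabp4 had the other sign and was higher in males, at 0.11 ± 0.03 (adjusted p = 0.00133), Lipe stood at 0.07 ± 0.03 (adjusted p = 0.0231) and Pnpla2 at 0.18 ± 0.02 (adjusted p = 6.65e-13). Plin1 (-0.03 ± 0.03), Cidec (0.07 ± 0.03, adjusted p = 0.0671) and Pparg (-0.02 ± 0.04) did not pass. With limma 5 of the 9 passed, without Lipe (0.06, adjusted p = 0.0621).

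**Figure D4:**
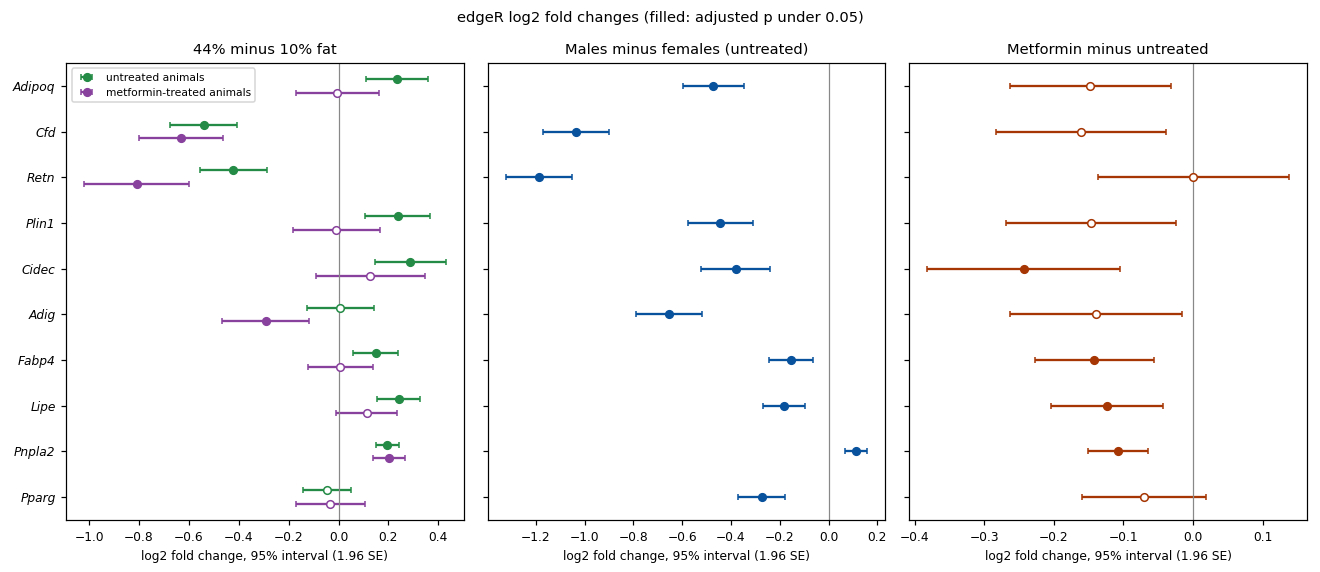
Log2 differences of the 10 genes for diet in untreated and in metformin-treated animals (44% minus 10% fat), for sex (male minus female) and for metformin (treated minus untreated), with bars of 1.96 SE and filled points for adjusted p under 0.05. Cfd and Retn lie below 0 for diet in both sets of animals and for sex, while Pnpla2 lies above 0 there and below 0 for metformin (-0.11).

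All 10 genes differed between strains among untreated animals, as did 95.4% of all genes, so the count by itself does not set these genes apart. Strain accounted for a median of 11.4% of the variance of log2 CPM, sex for 7.88% and diet for 2.23%. The shares differed between genes. Retn had 28.6% for strain and 24.8% for sex, Cfd had 16% for strain and 26% for sex, and Pnpla2 had 11.1% for strain and 11.2% for diet.

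The mean of Adipoq was highest in (CC024/GeniUncJ x CC002/UncJ)F1, at 24.7 ± 13.4 CPM (SD, n = 24), and lowest in (CC043/GeniUncJ x CC011/UncJ)F1, at 9.57 ± 5.14 CPM (n = 24), a ratio of 2.58. Next in order were (CC019/TauUncJ x CC042/GeniUncJ)F1 at 21.1 ± 13.8 CPM and (CC002/UncJ x CC075/UncJ)F1 at 20.5 ± 18.2 CPM. Near the lower end stood (CC012/GeniUncJ x CC002/UncJ)F1 at 11.6 ± 4.10 CPM and (CC043/GeniUncJ x CC042/GeniUncJ)F1 at 12.1 ± 6.74 CPM. Neighbours in this order differed by less than their SD in 19 of 19 pairs.

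The first of these strains, (CC024/GeniUncJ x CC002/UncJ)F1, also had the highest mean of Cfd, Retn, Plin1, Adig, Lipe and Pparg. Brown fat markers differed between strains as well, 6 of 6 by edgeR (Ucp1 with an adjusted p of 7.57e-32), as did 95.4% of all genes. Of 24 untreated libraries of that strain, 7 passed the Ucp1 limit, against 0 to 8 in the 20 strains and 1 in (CC043/GeniUncJ x CC011/UncJ)F1. The summed level of the 6 markers ran from 3.35 through a median of 8.44 to 119.7 CPM in the former, which had the highest strain median, and from 2.18 through 4.25 to 21.3 CPM in the latter, which had the lowest. Without the libraries over the limit all 10 genes still passed the strain test, and both strains kept their place at the ends for Adipoq, with 18.8 and 8.89 CPM, a ratio of 2.11. The first strain then had the highest mean of Cfd, Plin1, Lipe and Pparg but not of Retn and Adig. Whether these markers play a part in the order was not tested beyond this.

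Over all untreated libraries, strains differed most in Retn. The ratio of the highest to the lowest strain mean was 6.76 for Retn and 3.24 for Cfd, and it was 2.26 for Plin1, 2.40 for Cidec, 2.64 for Adig, 1.84 for Pparg, 1.73 for Fabp4, 1.69 for Lipe and 1.34 for Pnpla2. Retn was lowest in (CC002/UncJ x CC043/GeniUncJ)F1, with 1.06 ± 0.799 CPM and a highest value of 3.34 among 24 untreated animals. That strain was not low in Adipoq to the same degree, at 12.8 ± 4.91 CPM. The next lowest for Retn, (CC030/GeniUncJ x CC002/UncJ)F1, had 2.29 ± 1.48 CPM of Retn beside 17.7 ± 6.38 CPM of Adipoq, the sixth highest mean.

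Over the 20 strain means, Spearman's rho with Adipoq was 0.95 for both Plin1 and Cidec, 0.90 for Lipe, 0.87 for Fabp4 and 0.84 for Pparg, and it was 0.72 for Cfd, 0.56 for Adig, 0.54 for Retn and 0.26 for Pnpla2. These values describe 20 means of the same libraries, in which many strains share a parental line. In the 69 untreated libraries of the upper identifier range, 2 of the 10 genes passed the strain test, against 55.1% of all genes.

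**Figure D5:**
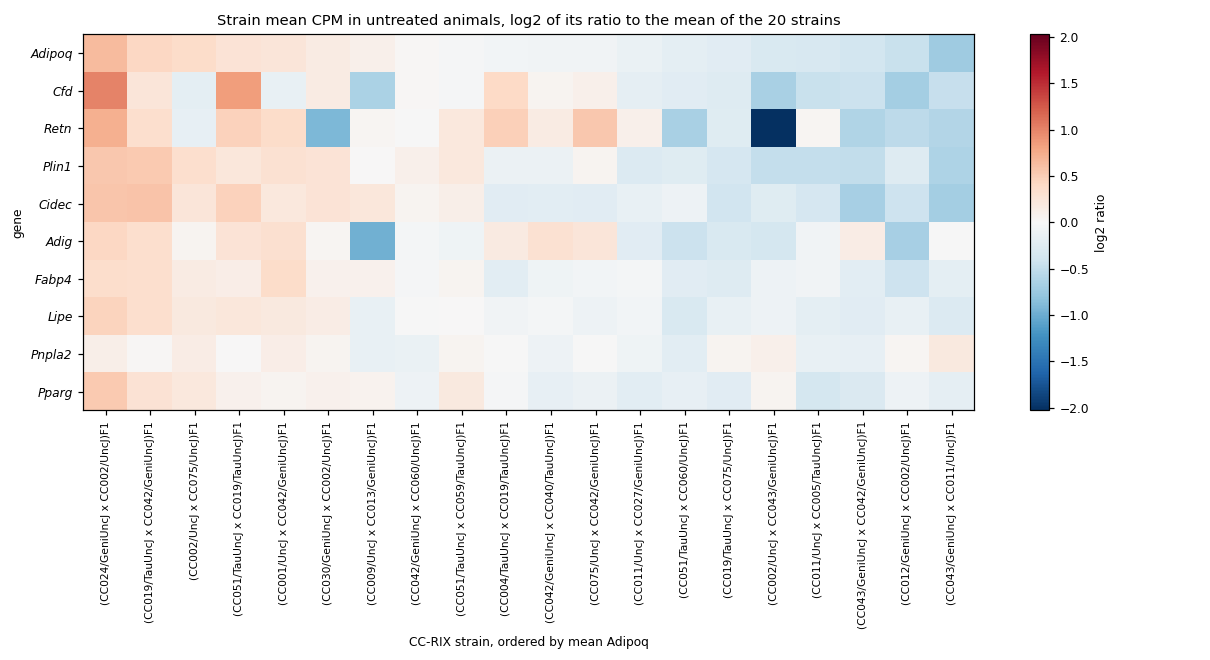
Mean level of the 10 genes in 20 strains of untreated animals, as the log2 ratio to the mean over strains (color scale), with strains ordered by Adipoq. Plin1 and Cidec follow the order of Adipoq (rho 0.95), and Retn has its lowest value in (CC002/UncJ x CC043/GeniUncJ)F1 (1.06 CPM).

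The last comparison set 234 animals given metformin against 469 untreated ones, who may be younger. Of the 10 genes, 4 were lower with metformin and 0 were higher (edgeR, with 8 at an unadjusted p under 0.05), against 11% and 8.34% of all 17740 genes and 19.4% in either direction. These were the droplet gene Cidec, the fatty acid carrier Fabp4 and the lipases Lipe and Pnpla2. Their differences were small, from -0.24 to -0.11 on the log2 scale.

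Cidec ran from 1.16 through 11.6 to 130.4 CPM without the drug and from 2.06 through 9.81 to 188 CPM with it. It fell by 0.24 ± 0.07 (adjusted p = 0.00675), and was lower in 17 of 20 strains. Pnpla2 ran from 64.9 through 134.3 to 343 CPM and from 62.7 through 123.2 to 267.5 CPM. It fell by 0.11 ± 0.02 (adjusted p = 6.33e-05), in 19 of 20 strains. These counts of strains were not adjusted for identifier range. Fabp4 (means 123 and 113.4 CPM) fell by 0.14 ± 0.04 (adjusted p = 0.0105) and Lipe (means 25.9 and 23.7 CPM) by 0.12 ± 0.04 (adjusted p = 0.02). The groups overlapped over most of their range for each of the 4 genes.

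Adipoq (-0.15 ± 0.06, adjusted p = 0.0594), Cfd (-0.16 ± 0.06, adjusted p = 0.0522), Plin1 (-0.15 ± 0.06, adjusted p = 0.08) and Adig (-0.14 ± 0.06, adjusted p = 0.103) missed the threshold, as did Pparg (-0.07 ± 0.05) and Retn (0.00 ± 0.07). Some of these calls turned on the model. Cfd passed with DESeq2 (-0.16, adjusted p = 0.0488) and in the lower identifier range alone (-0.27, adjusted p = 0.00514). In edgeR it also passed without the libraries closest to another strain (-0.17, adjusted p = 0.0438). Without the libraries over the Ucp1 limit Cfd stood at -0.08 (adjusted p = 0.394). Plin1 passed with limma (-0.17, adjusted p = 0.0313) and in 14 of 20 limma fits that left out 1 strain each, in which Adipoq passed in 7. The number of genes that passed turned on 1 library. Without the treated male with 130 CPM of Adipoq, all 10 genes were lower with metformin, with Adipoq at -0.22 ± 0.06 (adjusted p = 0.00114) and Retn at -0.16 ± 0.06 (adjusted p = 0.0465). That library was picked for its high value in the treated group, so leaving it out lowers the treated side by construction. With limma, which called 5 genes with all strains, leaving out 1 strain at a time gave 4 to 7, with 7 without (CC042/GeniUncJ x CC060/UncJ)F1. In the 159 libraries of the upper identifier range, edgeR called 0 of the 10, with 0 at an unadjusted p under 0.05, and 1 of all genes. The differences were smaller there, at -0.13 ± 0.10 for Cidec, -0.09 ± 0.06 for Fabp4, -0.03 ± 0.04 for Pnpla2 and -0.02 ± 0.05 for Lipe, and that of Cfd had the other sign, at 0.10 ± 0.10.

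B cell markers moved with the drug as well in edgeR. Of the 6 markers listed, 4 could be tested and all 4 were lower with metformin in edgeR, whereas limma called 0 and had 1 at an unadjusted p under 0.05. The edgeR values ran from Cr2 at -2.63 ± 0.24 to Cd79b at -1.66 ± 0.20. Their summed level had group medians between 0.209 and 0.309 CPM, and its highest value was 56.9, 63.3, 28.3 and 100.6 CPM in the 4 untreated groups against 2.65, 0.926, 1.41 and 2.5 CPM in the 4 treated ones. Without the libraries over the B cell limit, 6 of the 10 genes passed for metformin, with Adipoq at -0.15 ± 0.05 (adjusted p = 0.0184) and Plin1 at -0.14 ± 0.05 (adjusted p = 0.0478) added. Among other fat cell genes, 6 of 16 were lower and 0 higher, against 11% and 8.34% of all genes. They include Lep at -0.29 ± 0.08 and Dgat2, the last enzyme of triglyceride synthesis, at -0.20 ± 0.05.

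No interaction of metformin with diet or sex passed for these genes. By diet, edgeR called 0 of the 10 after adjustment, with 4 at an unadjusted p under 0.05, and limma called 0, with 0 at an unadjusted p under 0.05, against 0.0902% of all genes. The largest value was that of Retn, -0.48 ± 0.13 (adjusted p = 0.116), and it rested on the treated male with 130 CPM of Adipoq. Without that library it was -0.23 ± 0.11 (adjusted p = 0.555) and that of Adig was -0.24 ± 0.12 (adjusted p = 0.551). By sex, edgeR and limma each called 0, with 0 at an unadjusted p under 0.05 in either, against 3.12% of all genes. By strain, edgeR called 7 of the 10, against 11.6% of all genes, while limma called 0 and had 3 at an unadjusted p under 0.05. For Retn the mean difference per strain ran from -0.83 to 0.91, and the highest was that of (CC002/UncJ x CC043/GeniUncJ)F1, the strain of the male with 58.9 CPM of Retn. Without that library edgeR called 6 of the 10, and without the libraries over the Ucp1 limit it called 8.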

How the data were processed

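Gene expression was measured in gastrocnemius of 703 mice, 1 library each. The authors aligned both read ends as single reads to a transcriptome of 8 founder strains and deposited estimated counts (expected counts, EMASE), given as whole numbers and used as deposited. The table of transformed values was not used. Groups came from the labels. CPM are scaled by TMM. Tests used edgeR 4.0.16 (quasi-likelihood, filterByExpr, Benjamini-Hochberg adjustment over all genes tested) in R 4.3.3, with strain, sex, diet and identifier range as terms and metformin added for all animals. Alternatives used limma 3.58.1 (trend on log2 CPM, prior count 2) and DESeq2 1.42.0. Leave-one-out left out 1 strain at a time, in limma. Scripts were tested on simulated data. Positions are GRCm38, and sequences are from RefSeq. The gene lists and the 10 members were chosen with earlier results of these data known, and the 10 members are those the text names throughout. From the lists, the genes with the largest differences past the threshold are named as examples. No label ties animals to litters or cages, so p-values measure the spread between these animals.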

Additional observations from a re-analysis of the deposited data

Results flagged for a closer look

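Differences that themselves varied between groups were looked at again. The diet difference of Adig differed between the sexes by 0.69 on the log2 scale (adjusted p = 0.000846, edgeR), and limma gave 0.68 (adjusted p = 0.00059).

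The diet difference varied between strains in edgeR for Plin1 (adjusted p = 0.00224), Fabp4 (0.0075), Lipe (0.0088), Cidec (0.0109), Retn (0.0199), Adipoq (0.0355) and Pparg (0.0364). The lowest adjusted p over the 10 genes was 0.0709 with limma and 0.0881 in edgeR without the libraries over the Ucp1 limit.

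The metformin difference varied between strains in edgeR for Retn (adjusted p = 7.13e-16), Cidec (1.07e-05), Cfd (0.000147), Plin1 (0.000266), Adipoq (0.000629), Fabp4 (0.0154) and Lipe (0.0168). With limma the lowest adjusted p was 0.0562. In edgeR without the library with the most Adipoq it was 0.00438, that of Cfd. The adjusted p of Retn was then 0.0188, so its value of 7.13e-16 rested on that library.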

How the results depend on the processing

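Of the values for single genes under an alternative, 985 kept their direction and their side of the threshold, 24 lost the call, 41 gained it and 55 had the other sign, of which 52 passed in neither fit. In the upper identifier range alone the genes called of 10 were 5 for diet, 4 for sex, 0 for metformin and 2 for strain, and for sex Cidec stood at 0.15 and Fabp4 at 0.0048. With limma 0 were called for diet by strain and 0 for metformin by strain. Limma in the lower range alone called 2 for diet in treated animals, 0 for diet by strain and 0 for metformin by strain, and the median variance share of diet was 1.42% there instead of 2.23%. Alternatives chosen after seeing the data left out libraries by B cell, liver or Ucp1 markers or by Adipoq. Without the Ucp1 libraries 3 were called for diet by sex and 0 for diet by strain, and without the library with the most Adipoq 10 for metformin, with Retn at -0.16. Leaving out 1 strain at a time, in limma, gave 6 to 8 for diet, 10 to 10 for sex, 4 to 7 for metformin and 10 to 10 for strain. The cause of these shifts was not tested, and smaller sets also hold fewer samples.

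Counts over all genes moved by over 1.5 times in the upper range alone for diet (365 instead of 3320), sex (4329 instead of 10998), strain (9149 instead of 15626) and metformin (1 instead of 3437). With limma, and with limma in the lower range, they were 50 and 20 instead of 93 for diet by sex, 0.623% of genes and 49 genes instead of 677 (4.13%) for diet by strain, 0 and 0 instead of 16 for metformin by diet, 217 and 71 instead of 554 for metformin by sex, and 543 and 261 instead of 2061 for metformin by strain. Limma in the lower range gave 560 instead of 1979 for diet in treated animals. Without the Ucp1 libraries, 285 passed for diet by strain and 1359 for metformin by strain.

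Signs turned mostly where a value was close to 0. For metformin, Retn (0.0002) was -0.0002 with no filter on low counts, -0.0495 with limma, -0.0008 without libraries closest to another strain, -0.0425 in the lower range, -0.0666 without libraries with B cell markers and between -0.1071 and -0.0032 with 1 strain left out, and in the upper range Cfd was 0.10 and Pparg 0.0135. For diet, Adig was -0.0126 without libraries on the side of the other sex, -0.0064 in the lower range, -0.0224 without B cell libraries and between -0.0007 and 0.0669 with 1 strain left out, and Pparg was 0.0794 in the upper range. For diet in treated animals, limma gave 0.082 for Adipoq, 0.0717 for Plin1 and 0.029 for Pparg, limma in the lower range 0.0301 for Adipoq and -0.0243 for Fabp4, removal of the library with the most Adipoq 0.0957, 0.0893 and 0.0461 for Adipoq, Plin1 and Pparg, and removal of the Ucp1 libraries 0.0781, 0.0937 and 0.0349. For metformin by diet, Pnpla2 was -0.0507 with limma in the lower range, and Cfd 0.0286 and Cidec 0.0109 without the library with the most Adipoq. For metformin by sex, limma gave -0.15 for Retn and -0.12 for Cidec, and in the lower range -0.10 for Retn, -0.083 for Cidec, 0.0007 for Cfd and 0.0031 for Fabp4.

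No paired analysis was possible because every label carries the same replicate number. The alternatives on the authors' transformed values were not run. Adig, with a median of 49 counts per library, and Pparg and Retn, with 146 and 157, rest on the fewest counts.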
